A study of Mus musculus with 29 samples.

Results

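Natural killer (NK) cells of mouse blood were taken as the cells that the deposited annotation of the blood libraries codes as NK. This gave 1549 cells out of 51709 blood cells and out of 106977 cells in the whole series. The annotation divides them into 3 subtypes named NK1 (1206 cells), NK2 (206 cells) and NK3 (137 cells). NK cells are innate lymphocytes that kill infected or transformed cells by releasing perforin and granzymes, and that recruit other leukocytes with chemokines. Their activity is set by the balance of activating receptors, such as NKp46 (Ncr1) and NKG2D (Klrk1), and inhibitory receptors of the Ly49 (Klra) and CD94/NKG2A (Klrd1 with Klrc1) families. In mice they mature from a CD27-high state with Tcf7, Il7r and Cxcr3 to a CD11b-high state with Klrg1, Zeb2 and S1pr5. After stroke they are known both to enter the injured brain and to change in the circulation.

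Blood leukocytes were profiled by Drop-seq, a droplet method that tags every transcript molecule with a cell barcode. All mice were male C57BL/6J of 8 to 10 weeks. They had transient occlusion of the middle cerebral artery, sampled at day 2 (4 libraries) or day 14 (3 libraries), or sham surgery sampled at day 2 (4 libraries). The metadata label the sham libraries 9, 10, 9 and 8 weeks. Stroke day 2 libraries carry 9, 10, 10 and 10, and day 14 libraries 9, 9 and 8. Age thus differed between the groups and was not part of the tests. Each library pooled the blood of 2 mice, 0.5 ml each, drawn from the heart, with red cells lysed and Ter-119-positive cells removed, and with actinomycin D and Brilliant Blue G present during isolation in every group. The sham libraries of day 2 serve as controls for both stroke groups, so those comparisons are not independent, and at day 14 the stroke and the longer time since surgery cannot be told apart. Nothing in the labels says whether the libraries of a group came from separate operations, so p-values measure the spread between these libraries.

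NK cells numbered 62 to 202 per sham library, 67 to 90 per library of stroke day 2 and 204 to 338 per library of stroke day 14. Their counts summed to 36223 to 125740, 24710 to 63366 and 121234 to 132766 per library in the same order. The mean sum was highest at day 14 and lowest in stroke day 2. Sham replicate 1, at 125740, lay within the day 14 range, and the other sham libraries lay within that of stroke day 2. The median NK cell held 425 counts. Median counts per NK cell ranged from 356 to 539 in sham, 308 to 669 in stroke day 2 and 348 to 502 in stroke day 14, and the median mitochondrial share from 2.07% to 3.48%, 1.82% to 4.24% and 2.60% to 3.19%. Of all blood barcodes 86 occurred in more than 1 library, at most 7 between any pair, and 4 of them belonged to NK cells. All 11 libraries were kept in the main tests. An alternative used only cells with at least 500 counts. There, libraries with fewer than 20 such NK cells left the subtype and expression comparisons, and stroke day 2 lost libraries.

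Both defining markers were high in these cells. Nkg7, a granule membrane protein needed for cytotoxic degranulation, reached a pooled level of 4172 CPM (a gene's share of all counts, scaled to a common total per library) in NK cells against 547 in T cells, 6.91 in B cells and 0.687 in neutrophils. Klrd1, which encodes CD94, the partner chain of the NKG2 receptors, reached 1481 CPM against 205 in T cells. Per library, Nkg7 ranged from 2854 to 4902 CPM with a median of 4071, and Klrd1 from 1036 to 1717 CPM with a median of 1491. Nkg7 was counted in 79.0% of NK cells (1224 of 1549, exact binomial 95% interval 76.9% to 81.0%), in 22.5% of T cells and in 0.393% of B cells. B cells serve here as the background of free RNA, with a median of 422 counts per cell that is close to that of NK cells. Klrd1 was counted in 49.1% of NK cells, 10.7% of T cells and 0.174% of B cells. Intervals of this kind cover counting error only. Markers and levels that set these cells apart are a description without a test, since the annotation itself rests on the genes of these cells.

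The 15 genes with the highest ratio of NK cells to any other abundant type are given as a description. Gzma, encoding the granule protease granzyme A, averaged 11704 CPM in NK cells and 35.3 CPM in T cells, the next highest type, and was counted in 92.3% of NK cells against 0.0436% of B cells. Ncr1, encoding the activating receptor NKp46, averaged 1083 CPM against 2.59. Gzmb, encoding granzyme B, averaged 1060 CPM against 13.6. Among the 15 leading genes 8 encode lectin-like receptors or a pseudogene of that cluster: Klra4, Klra8, Klra14-ps, Klra9, Klrb1a, Klrb1b, Klri2 and Klre1. Klra8, which encodes the activating receptor Ly49H, averaged 2331 CPM, and Klra9, an inhibitory Ly49 receptor, 1356 CPM. The Klra genes are near-identical copies side by side on chromosome 6 (Klra4 at 130043731 to 130067271, Klra8 at 130115226 to 130129898, Klra9 at 130178675 to 130193112, GRCm38), so reads can be split between them and single-gene values for this family are uncertain. The gene with the highest ratio was Cma1, a chymase best known from mast cells, with 289 CPM in NK cells and at most 0.38 CPM in the other abundant types. The 5 genes of a basophil and mast cell list summed to between 0 and 23.8 CPM in the libraries of NK cells.

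**Figure D1:**
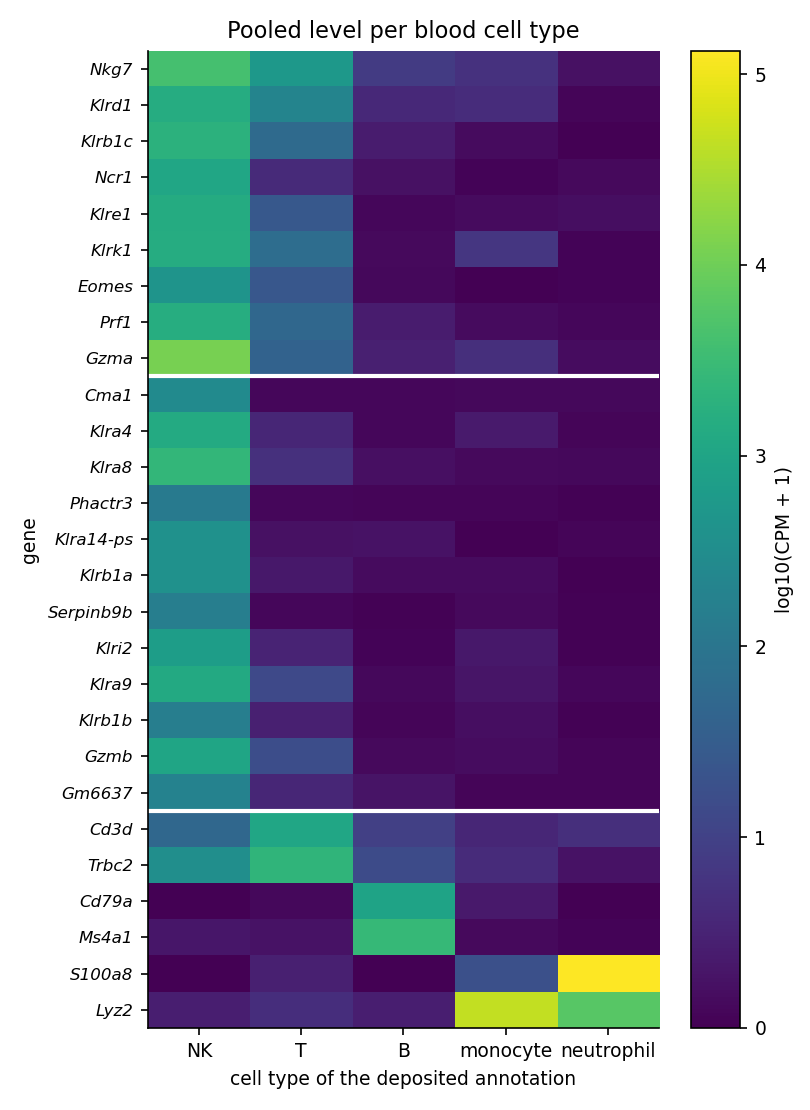
Pooled level of 27 genes (rows) in NK cells, T cells, B cells, monocytes and neutrophils of the deposited annotation (columns), as log10(CPM + 1). The upper block holds the NK marker list, the middle block the other leading genes of NK cells and the lower block markers of other types: Gzma is brightest in NK cells at 11593 CPM pooled, while Cd3d and Trbc2 are brightest in T cells, Cd79a and Ms4a1 in B cells, S100a8 in neutrophils and Lyz2 in monocytes.

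Sequences upstream of marker genes are shown for 3 genes, 2 that define these cells and 1 (Xcl1) that has the second smallest p in the comparison of day 14 with sham described further down. RUNX3, T-bet and EOMES are transcription factors that NK cell development needs, and their genes were all detected here: Eomes ranged from 236 to 679 CPM, Tbx21 (T-bet) from 119 to 348 CPM and Runx3 from 77.0 to 276 CPM over the libraries. Capitals mark the RUNX core TGTGGT (reverse complement ACCACA) and the T-box core TCACAC (reverse complement GTGTGA), searched on both strands. Sequences are from RefSeq on GRCm38.p6, 5′ to 3′ on the gene's strand, and end before the start of the annotated gene.
Nkg7, chr7:43436888-43437072, plus strand: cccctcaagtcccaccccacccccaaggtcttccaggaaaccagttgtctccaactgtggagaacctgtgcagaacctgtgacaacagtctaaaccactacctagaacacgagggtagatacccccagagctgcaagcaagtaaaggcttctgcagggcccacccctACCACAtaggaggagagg
Ncr1, chr7:4337465-4337714, plus strand: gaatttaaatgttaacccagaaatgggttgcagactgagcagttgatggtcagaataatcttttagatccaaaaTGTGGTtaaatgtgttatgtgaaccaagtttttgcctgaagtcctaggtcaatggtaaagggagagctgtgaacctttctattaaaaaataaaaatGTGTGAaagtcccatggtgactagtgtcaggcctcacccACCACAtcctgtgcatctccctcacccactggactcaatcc
Xcl1, chr1:164935528-164935772, minus strand: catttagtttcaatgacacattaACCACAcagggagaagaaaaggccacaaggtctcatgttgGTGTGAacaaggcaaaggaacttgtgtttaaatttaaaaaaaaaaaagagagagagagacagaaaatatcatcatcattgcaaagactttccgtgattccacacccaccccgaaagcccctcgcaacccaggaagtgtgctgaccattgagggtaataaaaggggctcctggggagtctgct

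Of the 9 genes in the NK marker list 8 had an entry in the promoter table, and Klrd1 had none. Within the 250 bases before the start, 7 of the 8 held the RUNX core (Nkg7, Klrb1c, Ncr1, Klre1, Klrk1, Prf1 and Gzma, all but Eomes), against 15.9% of all 27025 genes in the table. The T-box core was in 3 of 8 (Nkg7, Ncr1 and Klre1) against 13.9% of all genes, and an ETS core, GGAAGT (reverse complement ACTTCC), in 2 of 8 (Klrb1c and Prf1) against 22.2%. The T-box match of Nkg7 lies in the part of the window that overlaps the annotated gene and is not printed. These 3 motifs were chosen after the promoters had been looked at, and a match is a description of letters, not a binding site.

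Markers of other cell types were low. The 7 genes of the neutrophil list summed to at most 68.2 CPM in any NK library and 6.07 CPM pooled, against 248120 CPM in neutrophils, and 6 of the 7 had under 0.5 counts over all NK cells. The B cell list summed to 18.03 CPM pooled against 23444 in B cells, and 2 of its 6 genes had under 0.5 counts over all NK cells. The monocyte list summed to 1466 CPM, carried by Ly6c2 and Ccr2, which NK cells express themselves. The T cell list summed to 1290 CPM against 8625 CPM in T cells: 734 to 1631 in sham, 947 to 1942 in stroke day 2 and 1296 to 1566 in stroke day 14 libraries. Lck, a kinase that NK cells share with T cells, and Trbc2, whose unrearranged transcripts NK cells can carry, made up most of that sum, with medians of 638 and 361 CPM. Cd3d, Cd3e or Cd3g was counted in 59 of the 1549 NK cells (3.81%), in 65.3% of T cells and in 0.878% of B cells. No cell of the 1549 was marked by the doublet caller, which marked at most 0.169% of cells in any library, too few to have worked.

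NK cells made up a larger share of blood cells at day 14 after stroke than at day 2. The share of all cells was 3.19%, 2.21%, 1.97% and 2.34% in the sham libraries, 1.28%, 2.84%, 1.87% and 1.61% in stroke day 2, and 5.42%, 4.11% and 5.36% in stroke day 14. Every day 14 library lay above every library of the other groups, and the sham and stroke day 2 libraries overlapped. Means were 2.43% ± 0.53 (SD, n = 4), 1.90% ± 0.67 (SD, n = 4) and 4.96% ± 0.74 (SD, n = 3). Against stroke day 2 the share at day 14 was higher by 1.39 ± 0.35 on the log2 scale, or 2.62-fold (95% interval of the log2 difference 0.60 to 2.17), with an adjusted p of 0.0124 from the quasi-likelihood test of edgeR over 9 cell types, of which 22.2% were called. Against sham the difference was 1.03 ± 0.35 (edgeR, adjusted p 0.0674, with 11.1% of types called). Stroke day 2 against sham gave −0.36 ± 0.33 (edgeR, adjusted p 0.574, with 0% of types called), and the interval of that difference, −1.09 to 0.38, holds both a decrease by a log2 unit and a small increase.

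The share depends on the other cells of the library, of which neutrophils varied most: 12.4% to 48.5% of cells in sham, 11.7% to 69.6% in stroke day 2 and 11.4% to 22.4% in stroke day 14. Among cells other than neutrophils, NK cells were 3.61% ± 1.02 (SD, n = 4), 4.06% ± 1.78 (SD, n = 4) and 6.07% ± 0.78 (SD, n = 3), and the difference between the stroke times was 0.58 (edgeR, adjusted p 0.56). Among NK, T and B cells they were 4.59% ± 1.095, 5.42% ± 2.496 and 7.96% ± 0.74, a difference of 0.63 (edgeR, adjusted p 0.228). With either total the call was lost and stroke day 2 was on the higher side of sham, by 0.16 in both (edgeR, adjusted p 0.924 and 0.624). Leaving out day 14 replicate 1 also ended the call (1.32, edgeR, adjusted p 0.0565), while leaving out sham replicate 1 brought the difference between day 14 and sham under the threshold (1.19, edgeR, adjusted p 0.0419). A share cannot tell more NK cells from fewer other cells, and cell numbers per volume of blood were not analysed here.

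Relative to T cells, the other lymphocytes with cytotoxic members, NK cells numbered 22.6, 19.4, 28.3 and 14.3 per 100 T cells in sham, 20.3, 22.1, 10.8 and 18.2 in stroke day 2, and 28.7, 30.0 and 27.7 in stroke day 14. The day 14 libraries lay above all stroke day 2 libraries, but sham replicate 3 lay within the day 14 range, above 1 of its libraries. Exact two-sided permutation tests gave p = 0.0571 for day 14 against stroke day 2 (log2 difference 0.74), p = 0.0857 for day 14 against sham (0.49) and p = 0.457 for stroke day 2 against sham (−0.25), or 0.129, 0.129 and 0.457 after adjustment over the 3 comparisons. The smallest p that these tests can give is 0.0286, with 3 against 4 as with 4 against 4 libraries.

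The deposited metadata give each library a code, and the codes begin with the same 8 characters in sham replicate 1 and stroke day 2 replicate 1, and in sham replicate 2 and stroke day 2 replicate 2. Within the first pair the NK share went from 3.19% in sham to 1.28% in stroke, a log2 ratio of −1.32, and within the second from 2.21% to 2.84%, a ratio of 0.36, so the 2 pairs had opposite signs. Relative to T cells the log2 ratios were smaller, −0.15 in the first pair and 0.19 in the second. The beginning of each day 14 code occurs in no other library, and the same holds for replicates 3 and 4 of sham and of stroke day 2. No day 14 library can therefore be compared with another group within a shared beginning, and what the codes mark was not tested.

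**Figure D2:**
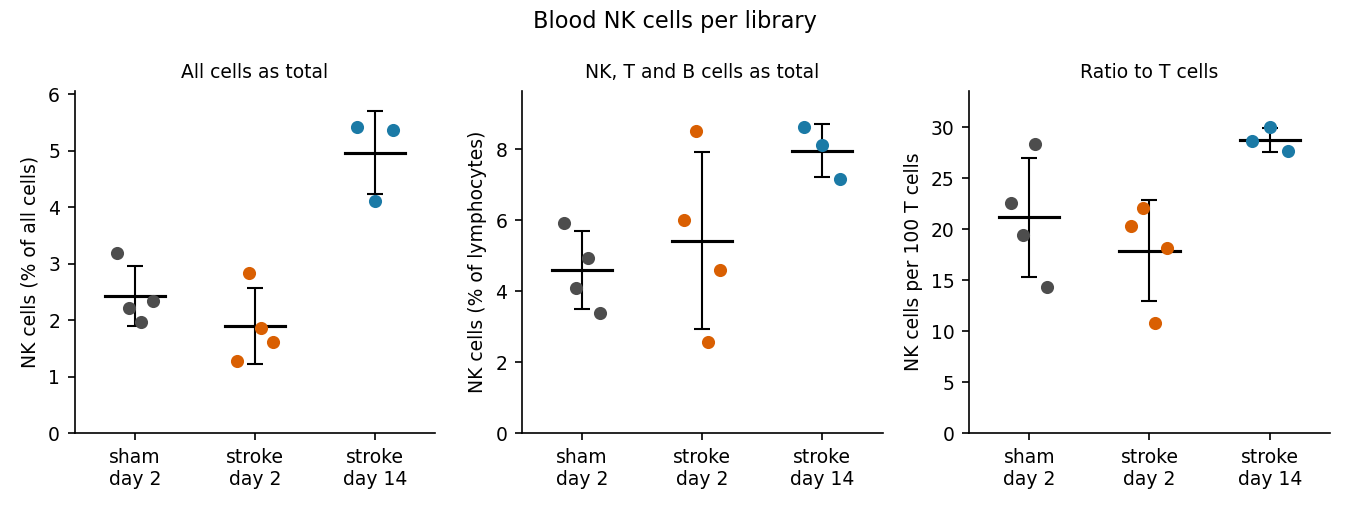
Each point is 1 library, the bar the group mean and the whiskers 1 SD, for NK cells as a percent of all cells (left), as a percent of NK, T and B cells (middle) and per 100 T cells (right), in sham day 2 (4 libraries), stroke day 2 (4) and stroke day 14 (3). The day 14 points lie above all others with all cells as total, at 4.11% to 5.42%, whereas the highest stroke day 2 library reaches the day 14 range, 8.51% against 7.16% to 8.62%, with lymphocytes as total.

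The 3 subtypes had gene profiles that are described here without a test, since the clusters were made from the same genes. NK1, 77.9% of NK cells, was led by S1pr5, the sphingosine-1-phosphate receptor through which mature NK cells leave lymph nodes and marrow, at 454 CPM against 153 in NK2 and 111 in NK3, and highest in NK1 in 10 of 11 libraries. Cma1 followed at 347 CPM against 74.1 and 141. The Ly49 receptor genes Klra8 (2847 CPM against 1353 and 1649) and Klra4 (1536 against 573 and 991) and the late-maturation receptor Klrg1 (284 against 89.7 and 191) were also highest in NK1. Among the 12 late-maturation genes the summed level was 4514 CPM in NK1, 2298 in NK2 and 5374 in NK3. The granzyme gene Gzmb alone made up 934, 590 and 2613 CPM of these sums, so the place of NK3 rests largely on it.

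NK2, 13.3% of NK cells, carried genes of the early, CD27-associated state. The 12 genes of that list summed to 4511 CPM, against 1387 in NK1 and 2185 in NK3, and to 4162 CPM in T cells. Il7r, the interleukin-7 receptor, stood at 246 CPM against 21.6 and 12.1. Ltb, encoding lymphotoxin beta, stood at 299 CPM against 35.9 and 23.7, and Cd7 at 1428 CPM against 362 and 329. Cxcr3 (205 against 62.9 and 25.5 CPM) and Tcf7 (172 against 64.7 and 63.7 CPM), the transcription factor TCF-1, followed. Gzma was lowest here, at 5808 CPM against 12877 in NK1 and 10705 in NK3, and so was the perforin gene Prf1, at 704 CPM against 1584 and 2340. The cytotoxic effector list as a whole summed to 14072 CPM in NK2 against 24161 and 24731, and Gzmb, Nkg7, Ctsd, Serpinb9, Serpinb6b and Cst7 were lowest there too. Ctsw, Lamp1, Fasl and Srgn were not lowest in NK2, as with Ctsw, encoding cathepsin W, at 1041 CPM against 1007 and 877. Several genes that lead NK2 are also T cell genes. Cd3d reached 214 CPM in NK2 (23.1 in NK1, 0 in NK3) and 1093 CPM in T cells. A Cd3 gene was counted in 38 of 206 NK2 cells (18.4%), against 19 of 1206 NK1 cells (1.58%) and 2 of 137 NK3 cells (1.46%). The 7 genes of a group 1 innate lymphoid cell list, which contains Il7r, summed to 501 CPM in NK2, 48.7 in NK1 and 12.1 in NK3. In T cells they summed to 1370 CPM. Whether NK2 holds cells of other lineages was not tested.

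NK3, 8.84% of NK cells, was led by Ccl4, a chemokine that activated NK cells secrete, at 2469 CPM against 366 in NK1 and 57.2 in NK2. Tnfrsf9, the costimulatory receptor 4-1BB, stood at 522 CPM against 46.4 and 8.25, and Crtam, an adhesion receptor of activated cytotoxic cells, at 358 CPM against 43.2 and 8.27. Each of these rested on few counts in NK3, 192 for Ccl4, 40.6 for Tnfrsf9 and 27.9 for Crtam. Ccl4 was highest in NK3 in 9 of 11 libraries, Tnfrsf9 in only 6 and Crtam in only 4. The other leading genes serve ribosome assembly, protein folding or nucleotide supply: Nme1 (925 against 256 and 217 CPM), Hspe1 (694 against 183 and 186), the nucleolar genes Fbl, Nhp2, Gnl3 and Nop10, and Ddx21 (1032 against 349 and 271). Nme1, Hspe1 and Ddx21 were highest in NK3 in 11 of 11 libraries. Gzmb (2613 against 934 and 590 CPM), Prf1 and Xcl1 (1308 against 201 and 533 CPM) were highest in NK3 too. Median counts per cell were 406 in NK1, 522 in NK2 and 472 in NK3.

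Subtype shares overlapped between the groups. NK1 made up 75.8% to 82.9% of NK cells in sham, 73.9% to 90% in stroke day 2 and 73.5% to 79.4% in stroke day 14. NK2 made up 9.52% to 21.0%, 6.67% to 18.2% and 11.8% to 16.2% in the same order. NK3 made up 3.23% to 10.9%, 3.33% to 10.96% and 8.82% to 10.3%, with means of 7.57% ± 3.21, 7.43% ± 3.14 and 9.63% ± 0.74. No difference passed an exact permutation test (adjusted p = 0.914 for all 9 tests). With a smallest possible p of 0.0286 and adjustment over 9 tests, a single subtype difference could not have passed whatever its size. A library held 6 to 50 NK2 cells and 2 to 33 NK3 cells.

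**Figure D3:**
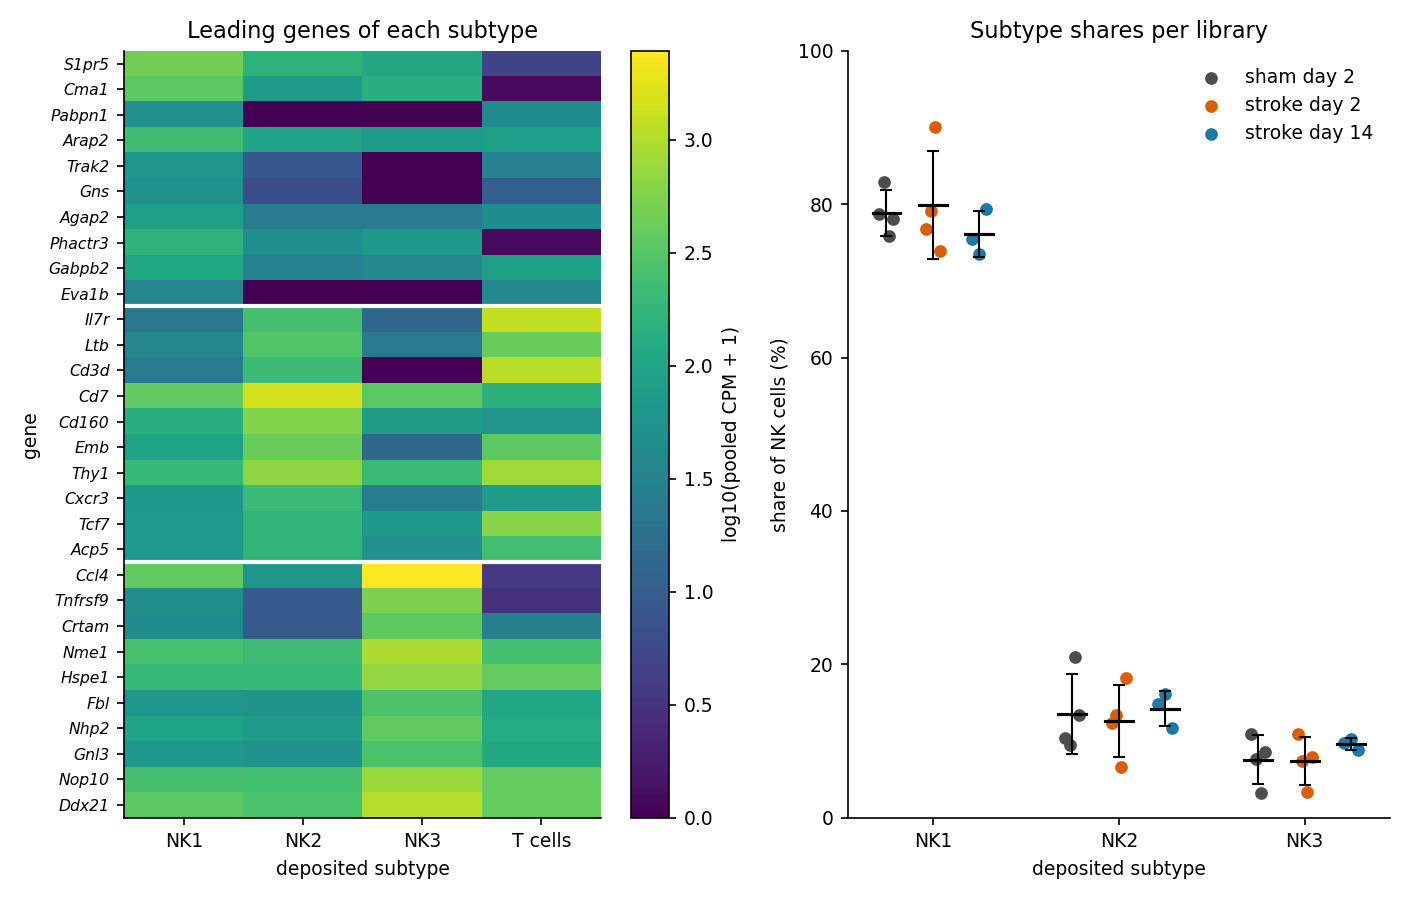
Left, pooled level as log10(CPM + 1) of the 10 leading genes of NK1 (top), NK2 (middle) and NK3 (bottom) in each subtype and in T cells. Right, share of NK cells in each subtype, 1 point per library, with group means and 1 SD. Ccl4 is the brightest cell, at 2469 CPM in NK3, several NK2 genes (Il7r, Cd3d, Thy1) are also bright in T cells, and the points of the 3 groups overlap in every subtype.

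Gene expression of NK cells was compared between the groups over 1000 genes that passed the filter on low counts. None was called: 0 of 1000 genes (0%) had an adjusted p under 0.05 in edgeR in stroke day 2 against sham, in day 14 against sham and in day 14 against stroke day 2, and DESeq2 called 0 in each as well. Unadjusted p-values under 0.05 numbered 33, 23 and 38 (edgeR), fewer than that threshold gives by chance among 1000 unchanged genes. The shares of genes without overlap given below are also no higher than random labels of the libraries would give. In simulated data with these libraries' depth, the same test recovered 97.9% to 100% of genes changed 4-fold and 62.4% to 79.3% of those changed 2-fold, and called 3 to 13 unchanged genes. The simulation gave all genes 1 common spread and the same composition in every library. Recovery of genes that scatter more between libraries was not measured, so these shares can be too high for the data. Smaller changes were not simulated. In bulk sums of this kind, more cells of 1 subtype and more RNA per cell cannot be told apart. The genes named below are members of the gene lists and the genes with the smallest unadjusted p among those without overlap of libraries, and none is called. Hsp90ab1, and Zfp36l2 in the comparison of the stroke times, fall outside that rule and were chosen after their values were seen.

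The libraries of the 3 groups overlapped for the core genes of killing. Gzma stood at 9638 to 12525 CPM in sham, 11227 to 15671 in stroke day 2 and 10832 to 11535 in stroke day 14. Prf1, encoding the pore-forming protein perforin, stood at 1253 to 1436, 1358 to 1940 and 1386 to 1681 CPM. Nkg7 differed by −0.02 ± 0.19 between stroke day 2 and sham and by 0.05 ± 0.20 between day 14 and sham (log2, edgeR, adjusted p 0.996 and 0.999). Gzmb was 1187, 782, 903 and 604 CPM in sham, 2165, 1040, 1114 and 941 CPM in stroke day 2, and 706, 1134 and 1088 CPM in stroke day 14. Its difference of 0.54 ± 0.25 at day 2 (edgeR, adjusted p 0.996) was 0.16 without stroke day 2 replicate 1, the highest library, and the groups overlapped. Of 15 cytotoxic effector genes 12 were tested and 0 called in any comparison, with a median log2 difference of 0.20 at day 2 and 0.06 at day 14 against sham, beside medians over all genes of 0.01 and −0.01.

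Ccl4 had the smallest p of all genes in day 14 against sham. Ccl4 (chromosome 11, 83662584 to 83664683) was 296, 449, 246 and 133 CPM in sham, 386, 221, 366 and 577 CPM in stroke day 2, and 1034, 620 and 486 CPM in stroke day 14. Every day 14 library lay above every sham library, which 2.3% of the 1000 genes did in that direction, and stroke day 2 overlapped both groups. The difference was 1.29 ± 0.29 against sham (edgeR, adjusted p 0.0760) and 0.78 ± 0.29 against stroke day 2 (edgeR, adjusted p 0.965), where it was 0.42 without day 14 replicate 1. The value against sham passed the threshold among cells with at least 500 counts (2.03, edgeR, adjusted p 0.00126), and with NK cells that had a Cd3 count left out (1.32, edgeR, adjusted p 0.0423). With single libraries left out it ran from 0.91 (edgeR, adjusted p 0.754, without day 14 replicate 1) to 1.52, and it passed without day 14 replicate 2 (1.38, edgeR, adjusted p 0.0461) or replicate 3 (1.51, edgeR, adjusted p 0.0165) only. Within NK1 cells alone it was 0.92 (edgeR, adjusted p 0.997). Ccl4 was counted in 11.2% of NK cells, 0.173% of T cells and 0.0436% of B cells.

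Xcl1, encoding lymphotactin, a chemokine that attracts cross-presenting dendritic cells, was next. Xcl1 was 269, 237, 110 and 164 CPM in sham, 110, 0, 227 and 471 CPM in stroke day 2, and 564, 515 and 396 CPM in stroke day 14. The day 14 libraries lay above all sham libraries, and stroke day 2 was the most scattered group, with 1 library at 0 of 24710 counts, which allows a level of up to 121 CPM. The difference was 1.16 ± 0.33 against sham (edgeR, adjusted p 0.559) and 0.98 ± 0.35 against stroke day 2 (edgeR, adjusted p 0.965). The value against sham passed without the filter on low counts (1.35, edgeR, adjusted p 0.0331) and among cells with at least 500 counts (1.52, edgeR, adjusted p 0.0171), and ran from 1.04 to 1.44 with single libraries left out, with no call. The value against stroke day 2 passed without replicate 4 of that group, its highest library (2.03, edgeR, adjusted p 0.00552), and fell to 0.74 without replicate 2, the library at 0 (edgeR, adjusted p 0.991). Ccl5, the other chemokine tested, is the most abundant one in these cells and stood at 12886 to 18722 CPM in sham and 14183 to 16654 CPM at day 14, a difference of −0.12 ± 0.19 (edgeR, adjusted p 0.999). Of the 8 cytokine and chemokine genes with values 3 were tested and 0 called. Ccl3, a chemokine related to Ccl4, and Ifng, encoding interferon gamma, were too low to be tested, with 35.3 to 264 and 0 to 132 CPM. In T cells the Xcl1 differences at day 14 were 0.77 against sham and 1.69 against stroke day 2 (edgeR), neither called.

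Ccl4 counts came mainly from NK1 and NK3, and Xcl1 counts from all 3 subtypes. In NK3, Ccl4 stood at 1038 CPM in sham (22 counts in 39 cells), 2074 in stroke day 2 (30 counts in 23 cells) and 3334 in stroke day 14 (140 counts in 75 cells). Exact Poisson 95% intervals, which cover counting error only, were 641 to 1549, 1422 to 3009 and 2797 to 3924 CPM. In NK1, Ccl4 stood at 247, 320 and 468 CPM in the same order. Xcl1 in NK3 stood at 417 CPM (9 counts), 837 CPM (12 counts) and 1922 CPM (81 counts), in NK2 at 594 CPM (20 counts), 408 CPM (10 counts) and 550 CPM (35 counts), and in NK1 at 135 CPM (26 counts), 159 CPM (20 counts) and 264 CPM (74 counts). Crtam, below the filter, had 3.97 counts over the sham libraries, 1.99 over stroke day 2 and 48.8 over stroke day 14, and was 67.4, 90.1 and 219 CPM in the day 14 libraries against at most 27.3 CPM in sham. These values are sums over cells of a group and carry no test, and the subtypes themselves were defined with these genes.

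**Figure D4:**
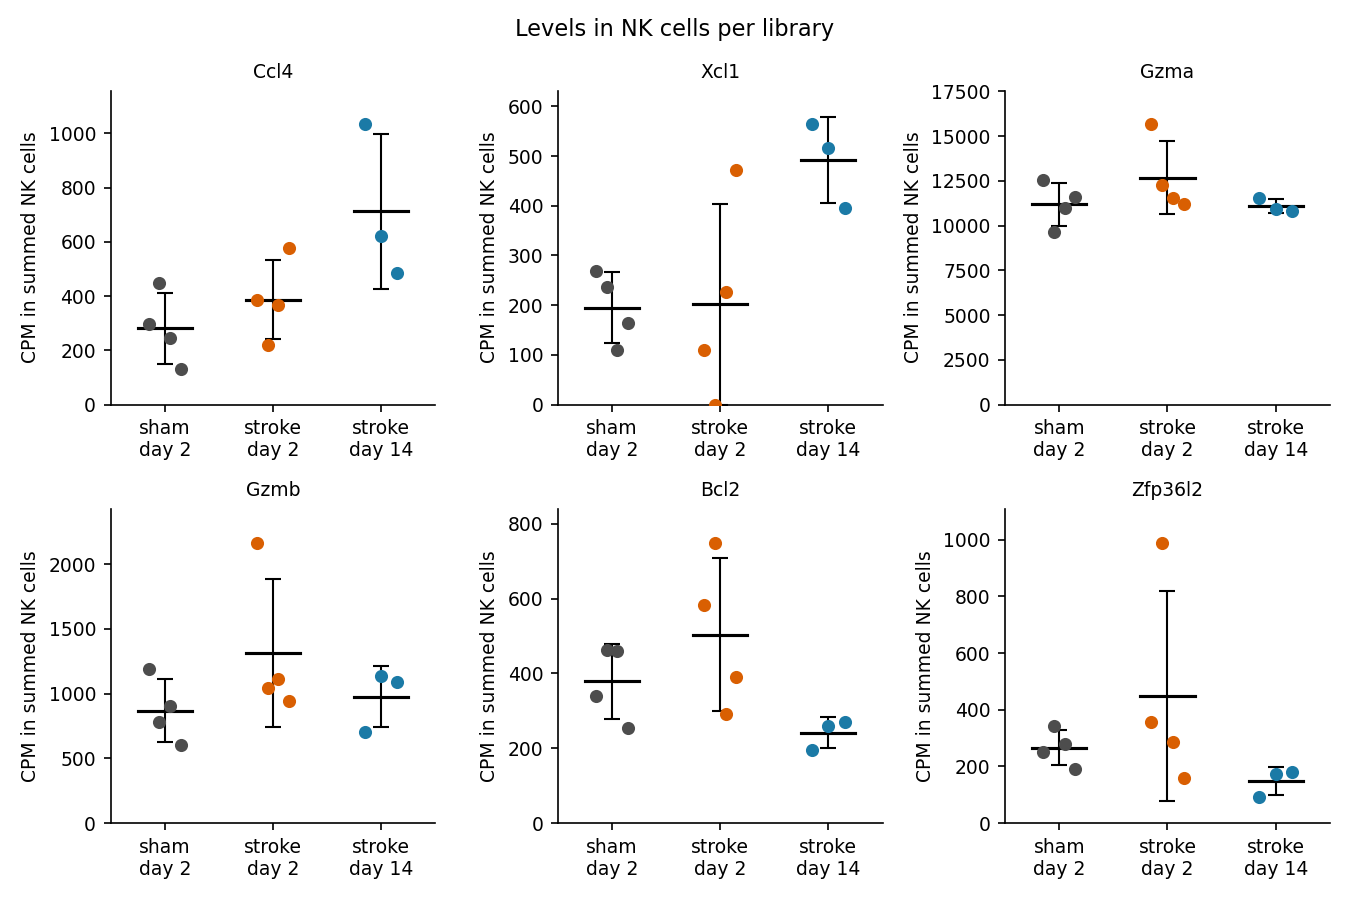
Level in the summed NK cells of each library (points, CPM) for 6 genes, with group mean and 1 SD, in sham day 2 (4 libraries), stroke day 2 (4) and stroke day 14 (3). Ccl4 and Xcl1 lie higher at day 14 than in any sham library, Gzma and Gzmb overlap between the groups, and Bcl2 lies lower at day 14 (196 to 271 CPM) than in any stroke day 2 library (292 to 749 CPM).

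Other genes above sham at day 14 without overlap were Thy1, Mndal and Ablim1, with log2 differences of 0.89 ± 0.34, 0.68 ± 0.29 and 0.52 ± 0.24 (edgeR, adjusted p 0.999 each). Thy1, a surface glycoprotein that NK2 holds at 665 CPM against 187 in NK1, was 198, 118, 54.4 and 213 CPM in sham and 387, 285 and 232 CPM at day 14. Mndal, an interferon-inducible gene of the p200 family, was 174 to 292 CPM in sham and 314 to 352 CPM at day 14. Below sham at day 14 were Ikzf1, Was, Zfp36l2, Zfp148 and Tpm4, by −0.91 to −0.43, a direction in which 1.4% of the 1000 genes did not overlap. Ikzf1, encoding the lymphoid transcription factor Ikaros, was 260 to 434 CPM in sham and 132 to 210 CPM at day 14. Was, the actin regulator lost in Wiskott-Aldrich syndrome, was 295 to 474 CPM in sham and 239 to 290 CPM at day 14. Hsp90ab1, a chaperone gene that NK3 holds at 4712 CPM, differed by 0.61 ± 0.23 (edgeR, adjusted p 0.999) with overlapping libraries, 1367 to 3500 CPM at day 14 and 1187 to 2054 CPM in sham, and by 0.25 without day 14 replicate 3, the highest library.

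Between the stroke times, Bcl2, encoding an inhibitor of apoptosis on which lymphocyte survival depends, had the smallest p. Bcl2 was 584, 749, 292 and 389 CPM at day 2 and 196, 260 and 271 CPM at day 14, without overlap, and 255 to 462 CPM in sham. The difference was −1.02 ± 0.27 (edgeR, adjusted p 0.384). Zfp36l2, an RNA-binding protein that destabilises messages, was 357, 990, 286 and 160 CPM at day 2 and 90.8, 173 and 180 CPM at day 14. Its difference was −1.39 ± 0.40 (edgeR, adjusted p 0.396), with overlap of 1 library, and it passed without stroke day 2 replicate 4 (−1.76, edgeR, adjusted p 0.00795). Without stroke day 2 replicate 2, the library at 990 CPM, it was −0.79 (edgeR, adjusted p 0.991), and among cells with at least 500 counts −0.76 (edgeR, adjusted p 0.970). Usp48, Lamp1, Junb and Ywhaz were also lower at day 14 without overlap, by −1.18 to −0.64. Lamp1, whose protein appears on the surface of degranulating NK cells, was 203 to 284 CPM at day 2 and 91.2 to 129 CPM at day 14, but sham libraries ran from 43.1 to 296 CPM. Higher at day 14 without overlap were Ptpn7, Zfand6, Arpc5l, Atrx and Map1lc3b, by 0.60 to 0.96. Without stroke day 2 replicate 4, Zfand6 was 0.54 and Atrx 0.38. Of all 1000 genes 2.2% were higher and 2.2% lower at day 14 without overlap. In T cells the same differences were −0.54 for Bcl2, −0.62 for Zfp36l2 and −1.66 for Junb (edgeR). For Usp48, Lamp1 and Ywhaz they were −0.07, −0.07 and −0.17, and none was called in T cells.

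At day 2 against sham, Ly6c2 and Cd53 had the smallest p of the named genes. Ly6c2, a surface antigen of mature NK cells and of monocytes, was 838, 625, 444 and 627 CPM in sham and 1486, 844, 1042 and 847 CPM in stroke, a difference of 0.68 ± 0.24 (edgeR, adjusted p 0.996) that was 0.44 without stroke day 2 replicate 1, the highest library. The monocyte list summed to 1036 to 1401 CPM in sham and 1426 to 1857 CPM in stroke day 2, without overlap. Ly6c2 is itself a large part of that sum, so the list gives no separate view of it. Pooled monocytes held Lyz2 at 44749 CPM and Ly6c2 at 1253 CPM. Lyz2 was 28.6 CPM in stroke day 2 replicate 1, also the highest library of Ly6c2, and under 1 CPM in every other library, while Ms4a6c averaged 2.81 CPM in sham and 11.5 CPM in stroke day 2, and Ccr2 differed by −0.33 ± 0.24. The part of monocyte RNA in the Ly6c2 difference was not tested. Sept11, Cox7a2, Mia2 and Hnrnpd were higher by 0.45 to 0.62. Cd53, a tetraspanin of leukocytes, was 510, 557, 496 and 358 CPM in sham and 331, 248, 140 and 354 CPM in stroke, a difference of −0.78 ± 0.28 (edgeR, adjusted p 0.996) that was −0.32 among cells with at least 500 counts. Ccdc50, Chmp4b, Selenok and the activating receptor gene Slamf7 were lower by −1.17 to −0.60. Of the 1000 genes 1% were higher and 0.6% lower at day 2 without overlap. Klrg1, the late-maturation receptor, differed by 0.98 ± 0.43 (edgeR, adjusted p 0.996) but ran from 0 to 331 CPM in sham and from 156 to 566 CPM in stroke day 2, and the difference was 0.65 without sham replicate 4, the library at 0, and 0.34 among cells with at least 500 counts.

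Gene lists gave 0 called genes in each of the 3 comparisons. Of 18 activating receptor and adaptor genes 12 were tested, with a median log2 difference of −0.14 at day 2 and −0.08 at day 14 against sham. Of 14 inhibitory receptor genes with values 9 were tested, with medians of −0.11 and −0.07. The 8 tested genes of late maturation had a median of 0.52 at day 2 and 0.13 at day 14 against sham, and −0.41 between day 14 and day 2, with Klrg1, Ly6c2 and Gzmb on the higher side and S1pr5 lower at day 2 (−0.45 ± 0.27). The 4 tested genes of early maturation (Thy1, Cd7, Ctla2a and Xcl1) had medians of 0.55 and 0.86 against sham, and Cd7 was on the lower side both times. The 12-gene list summed to 1504 to 2247 CPM in sham, 1265 to 2313 at day 2 and 1799 to 2373 at day 14. These ranges overlapped. Of its untested genes, Tcf7, Emb, Ltb, Cxcr3, Kit and Cd69 had lower means than sham at both stroke times. Cd27 had higher means both times, and Il7r a higher mean at day 2 and a lower one at day 14. Lineage transcription factors (7 of 15 tested, among them Eomes, Tbx21 and Id2) had medians of −0.05 and 0.03, and 6 tested genes of 18 cytokine receptor and signalling genes ranged from −0.20 to 0.13 at day 2 and from −0.13 to 0.10 at day 14. Trafficking genes (10 of 16 tested) had medians of −0.19 and −0.04. Klf2, a transcription factor that maintains S1pr1 and L-selectin, was the one trafficking gene with an unadjusted p under 0.05, by −0.56 ± 0.27 and −0.53 ± 0.25 against sham (edgeR, adjusted p 0.996 and 0.999).

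Energy metabolism (6 of 12 tested), proliferation (4 of 12) and immediate early genes (5 of 15) had medians between −0.13 and 0.14 in the comparisons with sham. None of the 16 interferon response genes was high enough to be tested. They summed to 390 to 534 CPM in sham, 378 to 491 in stroke day 2 and 440 to 532 in stroke day 14. The glucocorticoid and adrenergic list, of interest because stroke raises stress hormones, had 1 tested gene, the receptor gene Nr3c1, by −0.52 ± 0.37 at day 2 and −0.31 ± 0.32 at day 14 against sham (edgeR, adjusted p 0.996 and 0.999). Its 12 genes summed to 489 to 775 CPM in sham, 770 to 1439 CPM in stroke day 2 and 497 to 632 CPM in stroke day 14. Lists share members (Xcl1, Gzmb and Klrd1 each stand in more than 1), and their values are not independent.

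**Figure D5:**
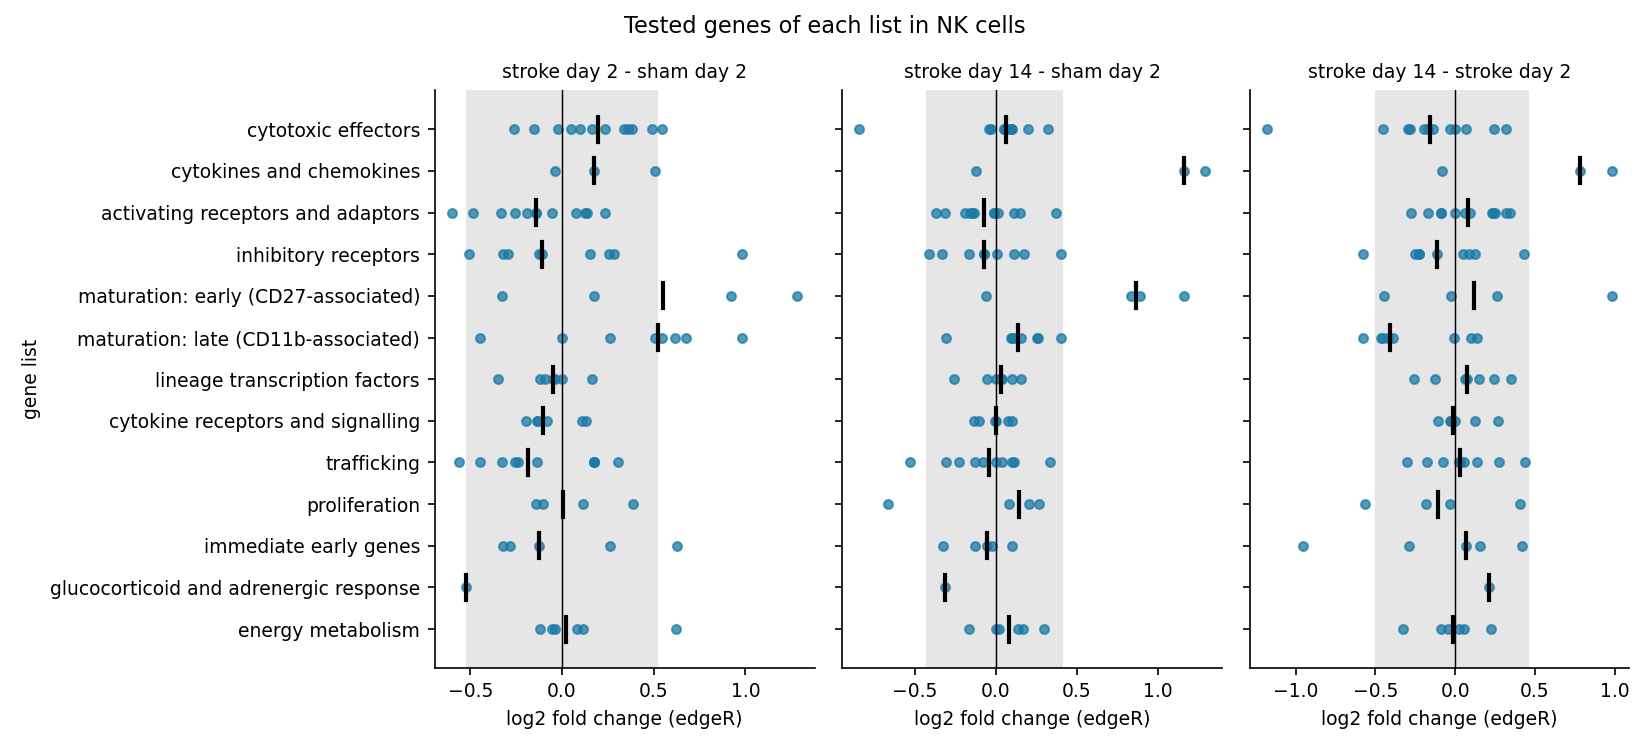
Log2 fold change in NK cells of each tested gene (points) by gene list (rows) for the 3 comparisons (panels), with the list median as a black bar and the middle 90% of all 1000 tested genes shaded. Most points lie in the shaded range, which runs from −0.43 to 0.41 in day 14 against sham, and Ccl4 (1.29) and Xcl1 (1.16) lie farthest to the right in that panel.

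The change in NK cells was set against the change in T cells of the same libraries for the same 1000 genes. In simulated data with NK cells changed and T cells unchanged, this test recovered 33% to 45% of genes changed 2-fold. Of genes changed 4-fold it recovered 88% to 93%, so it missed more changes than the test within NK cells. In day 14 against sham 1 gene (0.1%) was called, and in both other comparisons 0 (0%). Unadjusted p-values under 0.05 (limma) numbered 81 in stroke day 2 against sham, 41 in day 14 against sham and 127 between the stroke times. The first and last exceed what that threshold gives by chance among 1000 unchanged genes. The median differences over all genes were −0.12, 0.10 and 0.23 in the same order, so the values were not centred on 0. The reason was not tested. The called gene was Lgals1, encoding galectin-1, a carbohydrate-binding protein that restrains T cells (chromosome 15, 78926725 to 78930465). In NK cells Lgals1 stood at 2743, 1849, 2878 and 2371 CPM in sham, 2592, 1958, 2234 and 2491 CPM in stroke day 2, and 2403, 2466 and 2358 CPM in stroke day 14. In T cells it stood at 241, 134, 209 and 173 CPM, then 256, 169, 197 and 173 CPM, then 394, 371 and 347 CPM. The NK cell libraries overlapped throughout, and in T cells the day 14 libraries lay above all others. The NK change minus the T change was −0.82 ± 0.15 on the log2 scale (limma, adjusted p 0.0416), beside a median of 0.10 over all genes. The change was −0.05 ± 0.18 in NK cells and 0.94 ± 0.23 in T cells (edgeR, adjusted p 0.999 and 1.00 over the genes of each type). The call was lost with any 1 library of these groups left out (−0.88 to −0.80, limma, adjusted p 0.0930 to 0.745).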

How the data were processed

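The deposited tables of the 11 blood libraries hold expected counts, that is counts that need not be whole, of 16623 genes per cell, and the authors' metadata give each cell a coarse type and a subtype, and the percent of counts from mitochondrial genes as deposited. Seurat and the mouse build mm10 are named in the submitters' processing notes. The step that made the deposited counts fractional is not given in the sources used here. A gene was taken as counted in a cell at 0.5 or more. Counts were summed over the NK cells of each library and rounded, and no cell was removed. Libraries held 2360 to 6328 cells, and 0 columns were left unmapped.

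Differences were tested with edgeR 4.0.16 (quasi-likelihood, TMM scaling, filterByExpr, R 4.3.3) over all 11 libraries, with Benjamini-Hochberg adjustment at 0.05. The NK change minus the T cell change used limma 3.58.1 on log2 CPM with a prior count of 2. Cell type shares used edgeR on cells per type without TMM. Ratios and subtype shares used exact two-sided permutation tests. Values after ± on the log2 scale are standard errors. The tests were tried on simulated counts. Named genes are the 5 per direction and comparison with the smallest p among genes with libraries that did not overlap and a mean of at least 50 CPM, plus members of the lists. Levels compared between genes are CPM of 3′-tagged molecules. Members, lists and tests were chosen with earlier results of these data known. DESeq2 1.42.0, other totals, filters, library sets and a replicate block were tried as alternatives. Promoters are from RefSeq and gene positions from GENCODE, both on GRCm38.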

Additional observations from a re-analysis of the deposited data

Results flagged for a closer look

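In 4 of 82 groups of 4 libraries examined, 1 library stood far from the other three (chance gives about 5%). Klrd1 was 1717 CPM in sham replicate 4 and 1473 to 1491 CPM in the other sham libraries. Junb was 290 CPM in sham replicate 1 and 114.7 to 126.9 CPM in the others. Chmp4b was 238.4 CPM in sham replicate 2 and 220 to 222.1 CPM in the others. Gzmb was 2165 CPM in stroke day 2 replicate 1 and 941 to 1114 CPM in the others.

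For Lgals1 the change from sham to stroke day 14 differed between NK cells and T cells by −0.82 on the log2 scale (limma, adjusted p 0.0416, 1 of 1000 genes).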

How the results depend on the processing

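The higher NK share at day 14 than at stroke day 2 kept its direction in every alternative tried but not its call: the log2 difference was 0.58 among cells other than neutrophils (edgeR, adjusted p 0.56), 0.63 among lymphocytes (0.228), 1.36 with a replicate block (0.116) and 1.24 to 1.64 with each library left out (edgeR, adjusted p 0.00766 to 0.0565). The exact permutation test of the share (1.39, adjusted p 0.129) gave its smallest possible p of 0.0286 and could hardly pass after adjustment over 9 types, so it says nothing about the call. Against sham, day 14 gave 0.94 to 1.19 with each library left out, and passed with only the 2 groups compared in the fit (1.03, edgeR, adjusted p 0.0283). Stroke day 2 against sham ran from −0.61 to −0.20 with each library left out and was on the other side of 0 among cells other than neutrophils (0.16) and among lymphocytes (0.16). NK cells per T cell ran from −0.42 to −0.03, 0.31 to 0.64 and 0.51 to 0.86 in the 3 comparisons with each library left out, and were −0.67, 0.19 and 0.86 among cells with at least 500 counts. With each library left out, stroke day 2 minus sham ran from −2.30 to 3.08 percentage points for NK1, −2.77 to 1.54 for NK2 and −1.59 to 1.22 for NK3. NK2 at day 14 ran from −0.68 to 3.13 against sham and from −0.40 to 3.44 against stroke day 2. Among cells with at least 500 counts, NK3 was 1.60 at stroke day 2 against sham and 5.41 at day 14 against sham and 3.81 against stroke day 2, NK1 at day 14 was −6.48 and −8.02, and NK2 at day 14 1.07 and 4.21 (exact permutation tests, adjusted p 0.429 to 0.867). Libraries with fewer than 20 such NK cells were left out of these shares, which took libraries from stroke day 2. The cut on counts and the loss of libraries cannot be told apart there.

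Genes called in day 14 against sham numbered 3 without the filter on low counts (Ccl4, Xcl1 and Crtam), 2 with a replicate block, 2 among cells with at least 500 counts (Ccl4 and Xcl1 in both), 1 without cells that had a Cd3 count (Ccl4, an alternative chosen after seeing the data) and 0 to 1 with each library left out, and the gene lists gave the same counts of 3, 2, 2, 1 and 0 to 1. In day 14 against stroke day 2 the counts were 3 with a replicate block (Bcl2, Dusp2 and Zfp36l2), 3 with counts rounded up per cell (Retnlg, S100a9 and Wfdc17, of which Retnlg and S100a9 are in the neutrophil list) and 0 to 3 with each library left out (Dusp2, Xcl1 and Zfp36l2 without stroke day 2 replicate 4), with 0 to 1 among the lists. In stroke day 2 against sham they were 0 to 1 (Dusp2 without stroke day 2 replicate 4). For the NK minus T difference in day 14 against sham, 0 genes were called with a prior count of 0.5, with a replicate block or with any library left out, and 3 with only the 2 groups compared (Gzma, Klra3 and Lgals1), and stroke day 2 against sham gave 0 to 1 (Klra3 without stroke day 2 replicate 4). Before rounding up, S100a9 had at most 5.2e-06 counts in any NK library, so its call there rests on near-zero fractions raised to 1. The cause of the other differences was not tested. Of the values of single genes under the alternatives, 552 stayed on their side of the threshold, 13 passed it and 9, all of Lgals1, no longer did, and none changed sign. Most of these genes had been picked for libraries without overlap, which makes a change of sign unlikely beforehand. Many also lay far from the threshold, so the tally does not measure how robust they are. Among cells with at least 500 counts, values not given above moved by over 1.5 times: to 0.29 for Sept11, 0.94 for Cox7a2, −0.50 for Chmp4b and −0.20 for Slamf7 at day 2 against sham, and to 0.44 for Ccl4, 1.42 for Ptpn7, 1.90 for Zfand6, 0.95 for Atrx, 0.37 for Map1lc3b, −1.79 for Usp48, −0.58 for Lamp1 and −0.52 for Junb between the stroke times. All gene values from this alternative that involve stroke day 2 rest on fewer libraries of that group, those with at least 20 such NK cells. Without the filter on low counts Tpm4 was −0.23 (day 14 against sham) and Ywhaz −0.37 (between the stroke times), and within NK1 alone Ablim1 was 0.33.

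Replicate numbers were not taken to pair the libraries: same-number correlations were 0.18, 0.17, −0.15 and 0.18 for replicates 1 to 4 in stroke day 2 against sham, 0.11, −0.19 and −0.14 in day 14 against sham and 0.04, −0.08 and 0.07 in day 14 against stroke day 2, and 4 of 10 libraries correlated best with their own number. A fit by batch was not run, since the metadata used here name no batch, and leaving out doublets was not run, since none of the NK cells was marked. The depth, 24710 counts in the smallest library sum, limits the tests to 1000 genes.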
